A study of Mus musculus with 4 samples.

Results

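The ubiquitin regulators of TNF receptor signalling are described here by the accessible chromatin at their gene starts. The set holds 10 genes chosen by name, with earlier results of these data known. They are Cyld, Birc2, Birc3, Traf2, Tnfaip3, Rnf31, Rbck1, Sharpin, Tnip1 and Spata2. Every region whose deposited gene name was one of these was taken, which gave 7 of the 35019 regions in the table, 1 each for Cyld, Birc2, Birc3, Traf2, Tnfaip3, Rbck1 and Spata2. Rnf31, Sharpin and Tnip1 had 0 linked regions and were not analysed as members. The assay was ATAC-seq, in which Tn5 transposase cuts DNA where chromatin is open, on quiescent satellite cells (the resting muscle stem cells) purified by flow cytometry. One group came from mdx mice, which carry a mutation in the dystrophin gene and are a model of Duchenne muscular dystrophy, and the other from wild type mice, with 2 libraries each. The labels used here give no strain, sex or age. According to the design text each condition had 3 mice, but no label ties a library to 1 animal, so a p-value reflects variation among the 4 libraries, part of which may be technical.

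When TNF binds its receptor TNFR1, the adaptor TRAF2 brings the ubiquitin ligases cIAP1 (Birc2) and cIAP2 (Birc3) to the receptor, where they attach ubiquitin chains to the kinase RIPK1. The linear ubiquitin chain assembly complex, made of HOIP (Rnf31), HOIL-1 (Rbck1) and SHARPIN, then adds linear chains that recruit the IκB kinases and hold back cell death. CYLD, a deubiquitinase tethered to HOIP by SPATA2, takes chains off again, and the ubiquitin-editing enzyme A20 (Tnfaip3) with its partner ABIN1 (Tnip1) dampens the signal. Without these chains RIPK1 can pass into complexes that drive apoptosis or necroptosis, the form of regulated necrosis that the series title names. A20 and cIAP2 are themselves classical targets of NF-κB.

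Each of the 7 regions covered the deposited start of its gene, with its centre 35 to 189 bp from that start. The promoter sequences of 4 members are shown because they differ in the motifs of NF-κB and of other promoter factors. They are RefSeq windows (GRCm38.p6) of 300 bases, from 250 before to 50 after the RefSeq start, read 5′ to 3′ on the gene's strand. The windows are chr10:19015361-19015660 (minus strand) for Tnfaip3, chr9:7837008-7837307 (minus) for Birc2, chr9:7873121-7873420 (minus) for Birc3 and chr8:88696778-88697077 (plus) for Cyld. Capitals mark the NF-κB consensus and TATAAA in Tnfaip3, TGACGTCA in Birc2, and the NF-κB consensus and CCAAT in Cyld, while Birc3 has no capitals because none of the 5 motifs searched was in its window.
Tnfaip3: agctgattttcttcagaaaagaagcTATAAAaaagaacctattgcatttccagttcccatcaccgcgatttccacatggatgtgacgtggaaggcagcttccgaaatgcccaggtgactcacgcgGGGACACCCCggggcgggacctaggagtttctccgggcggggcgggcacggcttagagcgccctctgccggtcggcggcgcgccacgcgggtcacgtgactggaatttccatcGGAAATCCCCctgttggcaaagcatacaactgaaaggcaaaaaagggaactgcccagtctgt
Birc2: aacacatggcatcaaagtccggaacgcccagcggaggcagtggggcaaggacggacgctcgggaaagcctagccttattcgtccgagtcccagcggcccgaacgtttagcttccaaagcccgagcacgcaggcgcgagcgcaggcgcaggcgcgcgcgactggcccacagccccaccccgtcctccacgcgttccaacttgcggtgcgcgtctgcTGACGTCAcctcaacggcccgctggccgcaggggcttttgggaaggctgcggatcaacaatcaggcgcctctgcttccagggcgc
Birc3: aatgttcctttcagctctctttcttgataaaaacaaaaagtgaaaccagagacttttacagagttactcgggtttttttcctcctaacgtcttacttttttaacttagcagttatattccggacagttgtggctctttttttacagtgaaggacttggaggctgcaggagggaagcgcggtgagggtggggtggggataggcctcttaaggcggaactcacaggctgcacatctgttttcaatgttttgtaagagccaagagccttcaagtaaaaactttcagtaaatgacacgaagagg
Cyld: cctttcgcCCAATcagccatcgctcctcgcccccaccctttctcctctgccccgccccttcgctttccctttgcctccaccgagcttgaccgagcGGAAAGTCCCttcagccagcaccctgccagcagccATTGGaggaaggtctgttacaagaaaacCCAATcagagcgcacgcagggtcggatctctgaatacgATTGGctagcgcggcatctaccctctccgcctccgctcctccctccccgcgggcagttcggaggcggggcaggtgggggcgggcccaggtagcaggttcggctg

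RefSeq windows were found for 9 of the 10 genes, all but Sharpin. Both strands were searched for 5 motifs, the NF-κB consensus among them. The NF-κB consensus was in 8.46% of the 32851 windows of the RefSeq table. Tnfaip3 held it at 2 places, GGGACACCCC beginning 125 bases before the start and GGAAATCCCC beginning 12 bases before it. Cyld held 1, GGAAAGTCCC. Tnip1 held GGGAATTCCC, a palindrome at which 3 overlapping matches fall. The cyclic AMP response element, TGACGTCA, present in 1.79% of windows, was found once in Birc2, 35 bases before the start, and in none of the other 8 windows. The TATA motif TATAAA, in 13.6% of windows, was found once, in Tnfaip3. The GC box GGGCGG, in 35.7% of windows, was found in 6 of the 9. The CCAAT box, CCAAT, in 37.4% of windows, occurred 4 times in Cyld, 2 times in Rbck1 and once in Rnf31. Matches overlapped at the Tnip1 palindrome and at 2 GC boxes of Tnfaip3, which share a base, and no match overlapped one of another motif in these 9 windows. A match describes letters and is not a binding site. The accessible region held all 300 bases of the Cyld, Birc2 and Tnfaip3 windows but 111 bases of the Birc3 window, since the RefSeq start of Birc3 lies 146 bp upstream of the deposited one.

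**Figure D1:**
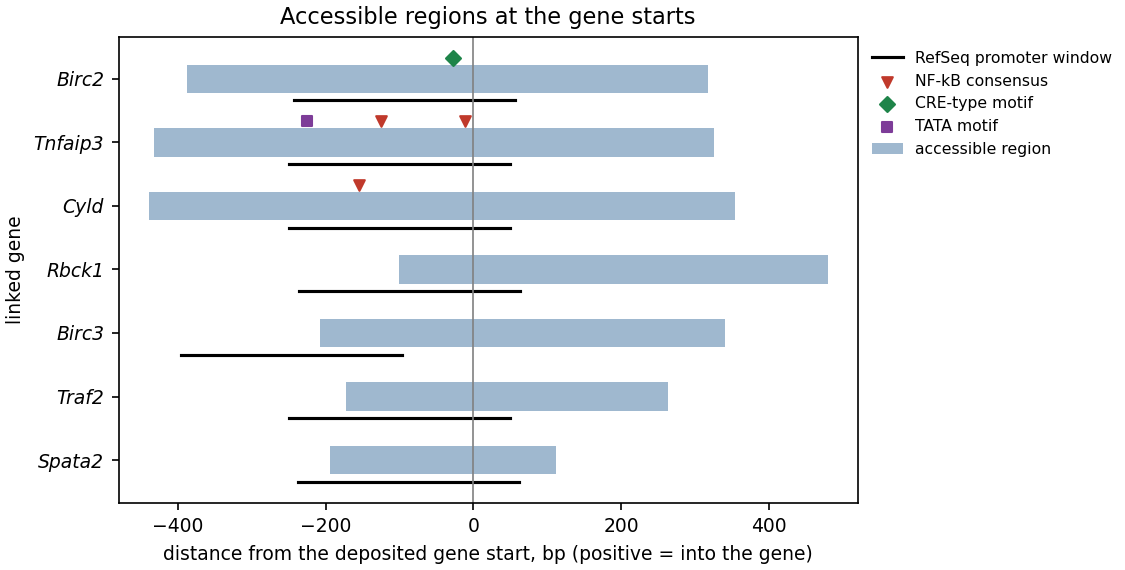
Extent of the 7 accessible regions (bars) around the deposited gene start, in bp with positive values into the gene, with the RefSeq promoter window (black line) and matches to 3 of the motifs (symbols). The regions of Cyld, Birc2 and Tnfaip3 span their whole window, and that of Birc3 reaches only its downstream end.

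The values are reads per region that the authors scaled by 1 factor per library and rounded, called scaled reads here. The listed regions held 3208475 and 3607633 recovered reads for mdx, against 3693096 and 8165050 for wild type. Promoters took 52.8% and 57.2% of the nuclear part in mdx, against 64.2% and 61.1% in wild type. The mitochondrial share was 17.7% and 13.7% in mdx, against 14% and 9.31% in wild type. Of the satellite cell markers, 5 of 8 had a listed promoter region, Pax7 and Myf5 among them, with summed levels of 930 to 934 scaled reads in mdx and 1093 to 1299 in wild type. Of the fibro-adipogenic progenitor markers, 5 of 8 had one, with sums of 343 to 350 in mdx and 185 to 221 in wild type, although the defining marker Pdgfra had none. No leukocyte marker (0 of 8) and 1 of 8 endothelial markers, Tek, had one (131 to 152 in mdx, 131 to 146 in wild type). Pax7 and Myf5 themselves overlap between the groups. Calcr held 170 and 178 in mdx, against 346 and 254 in wild type. Cd34 held 53 and 72 in mdx, against 132 and 87 in wild type. Megf10 held 218 and 200 in mdx, against 301 and 257 in wild type, so these markers were apart with mdx lower. The promoter share, the fibro-adipogenic sum and the satellite cell sum move with genotype, and their part in the results below was not tested. In bulk chromatin, fewer cells with an open region and less opening per cell cannot be told apart.

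None of the 7 regions passed the test between mdx and wild type cells. The Birc3, Traf2, Tnfaip3 and Birc2 regions each had both mdx libraries below both wild type libraries, by 1.39-fold to 1.82-fold, while those of Cyld, Rbck1 and Spata2 overlapped between the groups. At an adjusted p under 0.05 (limma), 0 regions were higher and 0 lower, against 4.18% of 33161 tested regions and 2.23% of 10139 tested promoter regions with a gene name. At an unadjusted p under 0.05 the count was 4 of 7, against 21.0% of named promoters. That count was 1 with promoter medians set equal and 2 after cyclic loess. It was 5 with distal medians set equal, a scaling with a named promoter median of -0.60. With 1 library left out, the median log2 fold change of the 7 regions ran from -0.67 to -0.32, beside -0.35 to -0.18 over named promoters. After cyclic loess the median of the 7 regions was -0.27, beside -0.22 over named promoters. Limma-voom on recovered reads called 1, Birc3, against 3.69% of named promoters. The 4 regions whose libraries did not overlap stand beside 45.6% of named promoters that were apart in the same direction. The median log2 fold change, mdx minus wild type, was -0.47 over the 7 regions, -0.26 over named promoters and -0.01 over all tested regions.

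**Figure D2:**
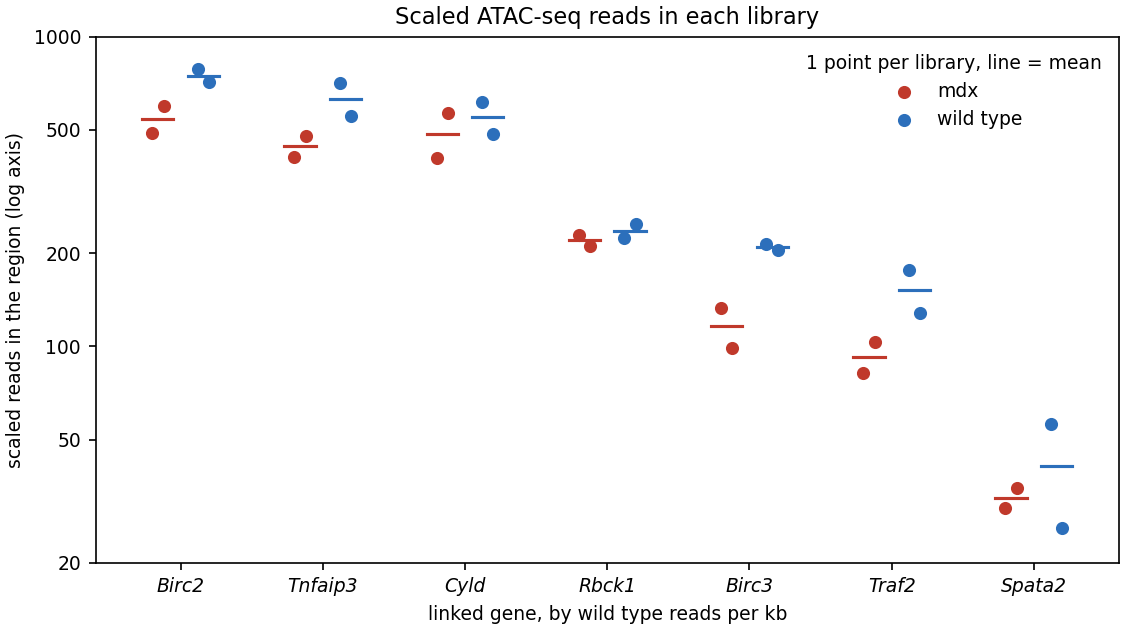
Scaled reads (vertical log axis) in the promoter region of each gene, with 1 point per library, a line at the group mean, and genes ordered by wild type scaled reads per kb. The groups are apart for Birc2, Tnfaip3, Birc3 and Traf2, and overlap for Cyld, Rbck1 and Spata2.

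Among the ligases that act on RIPK1, Birc3 had the largest difference of the set. Its region, chr9:7872684-7873231 (mm10, ENSMUSG00000032000), held 133 and 99 scaled reads in mdx, against 214 and 205 in wild type. Both mdx values lie well under the wild type values, which are close together. The means were 116.0 ± 24.0 in mdx and 209.5 ± 6.4 in wild type (SD, n = 2 each), giving a log2 fold change of -0.86 (SE 0.24) and a 95% interval from -1.38 to -0.34 (limma, adjusted p = 0.0616). Of named promoters, 6.5% had a lower fold change. In the mdx libraries these values rest on 96 and 85 recovered reads, with exact Poisson 95% intervals of 77.8 to 117 and 67.9 to 105, which cover counting error only. In the wild type libraries they rest on 175 reads (150 to 203) and 417 reads (378 to 459). The region passed as lower in 6 of 9 alternatives that kept all libraries and group as the only term, with adjusted p from 0.00551 to 0.135 over the 9 (limma).

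Birc2 lies next to Birc3 on chromosome 9 and encodes the paralogous ligase. Its region, chr9:7836746-7837451 (ENSMUSG00000057367), held 488 and 596 scaled reads in mdx, against 784 and 715 in wild type, and the groups did not overlap. The means of 542.0 ± 76.4 in mdx and 749.5 ± 48.8 in wild type (SD, n = 2 each) gave a log2 fold change of -0.47, SE 0.16, with a 95% interval from -0.83 to -0.12 (limma, adjusted p = 0.113). A lower fold change was found at 27.4% of named promoters. The Birc2 region held the most scaled reads per kb of the 7 in each group. The ratio of Birc3 to Birc2 scaled reads, which does not depend on the library factor, was 0.273 and 0.166 in mdx and 0.273 and 0.287 in wild type. One mdx library thus matched the wild type ratio and the other lay under it.

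Traf2, the adaptor that docks both ligases, had its region at chr2:25546677-25547112 (ENSMUSG00000026942). It held 82 and 103 scaled reads in mdx, against 177 and 128 in wild type, with no overlap but a wide gap between the wild type libraries. The means were 92.5 ± 14.8 in mdx and 152.5 ± 34.6 in wild type (SD, n = 2 each), with a log2 fold change of -0.71, SE 0.27, and a 95% interval from -1.29 to -0.12 (limma, adjusted p = 0.147). A lower fold change was found at 11.6% of named promoters. Leaving out wild type replicate 1 gave -0.47, and leaving out wild type replicate 2 gave -0.94.

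Of the linear chain assembly complex, Rbck1 alone had a linked region. At chr2:152332173-152332754 (ENSMUSG00000027466) it held 229 and 211 scaled reads in mdx, against 224 and 249 in wild type, and the groups overlapped. Means of 220.0 ± 12.7 in mdx and 236.5 ± 17.7 in wild type (SD, n = 2 each) gave a log2 fold change of -0.10, SE 0.20, with a 95% interval from -0.54 to 0.34 (limma, adjusted p = 0.804). The interval leaves room for a change of either sign. The start of Rnf31, the catalytic subunit, falls inside a region that the deposited annotation links to the neighbouring proteasome activator gene Psme2, chr14:55590873-55591871. That region held 459 and 373 scaled reads in mdx, against 578 and 494 in wild type. It was found by position after values were seen, so it has no test, and its reads cannot be assigned to one of the 2 gene starts. No region overlapped the RefSeq span of Sharpin.

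Of the enzymes that remove or edit chains, Cyld had groups that overlapped and Tnfaip3 had groups that were apart, a contrast that was not tested. Cyld, at chr8:88696589-88697382 (ENSMUSG00000036712), held 406 and 567 scaled reads in mdx, against 614 and 485 in wild type. The groups overlapped, since 1 mdx library lay between the wild type libraries. Means of 486.5 ± 113.8 in mdx and 549.5 ± 91.2 in wild type (SD, n = 2 each) gave a log2 fold change of -0.19, SE 0.20, and a 95% interval from -0.61 to 0.24 (limma, adjusted p = 0.614). Without mdx replicate 1 the value was 0.06.

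Spata2, which links CYLD to the linear chain complex, had the weakest region, chr2:167492775-167493081 (ENSMUSG00000047030), with 30 and 35 scaled reads in mdx, against 56 and 26 in wild type. The wild type libraries enclose both mdx libraries. These values rest on 22 and 30 recovered reads in mdx, against 46 and 53 in wild type. The log2 fold change was -0.23, SE 0.44, with a 95% interval from -1.19 to 0.72 (limma, adjusted p = 0.796), and it was 0.31 without wild type replicate 1. That interval holds 0 as well as the value of -0.86 seen at Birc3, so neither lies outside it.

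Tnfaip3, encoding A20, had its region at chr10:19015085-19015842 (ENSMUSG00000019850), around the 2 NF-κB matches printed above. It held 410 and 479 scaled reads in mdx, against 707 and 554 in wild type. All mdx values lie below all wild type values, but the wild type libraries differ more from each other than the nearest values of the 2 groups do. The means were 444.5 ± 48.8 in mdx and 630.5 ± 108.2 in wild type (SD, n = 2 each), with a log2 fold change of -0.50, SE 0.18, and a 95% interval from -0.88 to -0.11 (limma, adjusted p = 0.125). A lower fold change was found at 25.3% of named promoters. Leaving out wild type replicate 1 gave -0.32, and leaving out wild type replicate 2 gave -0.67. Tnip1, encoding its partner ABIN1, had no listed region at its RefSeq start, where the palindromic NF-κB match lies. A region inside the gene, chr11:54955821-54956271, held 80 and 103 scaled reads in mdx, against 158 and 115 in wild type. Its centre is 6910 bp from the start, it is linked to no gene, and it was found by position after values were seen, so no test is given.

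The sign of the smaller differences depended on the scaling. Setting the medians of promoter regions equal between libraries moved the median of all tested regions to 0.18, against -0.01 as deposited, and setting those of distal regions equal moved it to -0.35. In the first case Birc3 was at -0.66, Traf2 at -0.51, Tnfaip3 at -0.30 and Birc2 at -0.27 on the log2 scale, while Cyld turned to 0.01 and Rbck1 to 0.10, and 0 of 7 regions passed (limma), against 1.80% of named promoters. The median of named promoters was then -0.06. In the second case Birc3 (-1.20, adjusted p = 0.00551), Traf2 (-1.05, adjusted p = 0.0215), Tnfaip3 (-0.84, adjusted p = 0.0193) and Birc2 (-0.82, adjusted p = 0.0195) passed as lower in limma, against 23.2% of named promoters. These 4 calls stand beside a named promoter median of -0.60. After cyclic loess Birc3 was at -0.84, Traf2 at -0.74, Tnfaip3 at -0.27 and Birc2 at -0.22, beside a named promoter median of -0.22. Over all tested regions the fit called 1095 higher and 292 lower as deposited, 1802 higher and 156 lower with promoter medians equal, and 1229 higher and 3476 lower with distal medians equal.

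**Figure D3:**
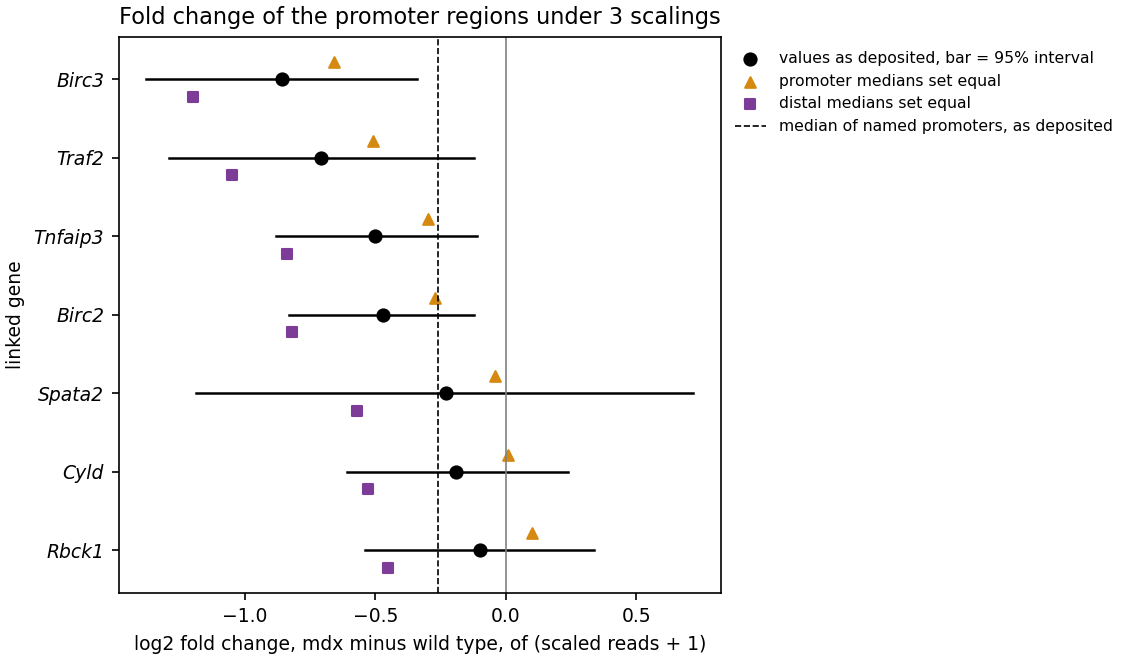
Log2 fold change, mdx minus wild type, of scaled reads plus 1 for the 7 promoter regions, as deposited (black point with 95% interval from limma), with promoter medians set equal (triangle) and with distal medians set equal (square). The dashed line is the named promoter median of -0.26. Birc3, Traf2, Tnfaip3 and Birc2 stay below 0 in all 3 scalings, and Cyld and Rbck1 cross 0.

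Levels per kb of region allow the genes to be ordered within a group. In mdx the order was Birc2 (769 ± 108 scaled reads per kb), Cyld (613 ± 144), Tnfaip3 (587 ± 64.5), Rbck1 (379 ± 21.9), Traf2 (213 ± 34.1), Birc3 (212 ± 44.0) and Spata2 (106 ± 11.6). In wild type it was Birc2 (1063 ± 69.2), Tnfaip3 (833 ± 143), Cyld (693 ± 115), Rbck1 (407 ± 30.4), Birc3 (383 ± 11.6), Traf2 (351 ± 79.7) and Spata2 (134 ± 69.3), all SD with n = 2. In mdx the libraries of neighbours overlapped for Birc2 with Cyld, Cyld with Tnfaip3 and Traf2 with Birc3. In wild type they overlapped for Tnfaip3 with Cyld, Rbck1 with Birc3 and Birc3 with Traf2. Rbck1 and Birc3 therefore had like levels in wild type, 386 and 429 scaled reads per kb for Rbck1 and 391 and 375 for Birc3. In mdx they were apart, at 394 and 363 for Rbck1 and 243 and 181 for Birc3. Among named promoters ranked by scaled reads per kb, Birc3 was at percentile 50.3 in mdx and 71.5 in wild type, and Rbck1 at 77.6 in mdx and 73.9 in wild type. Birc2 was at 95.9 in mdx and 97.5 in wild type, and Spata2 at 17.7 in mdx and 20.4 in wild type.

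Ratios between 2 regions of the same library do not change with the library factor. Traf2 over Cyld was 0.202 and 0.182 in mdx and 0.288 and 0.264 in wild type, so the adaptor was lower relative to the deubiquitinase in both mdx libraries. Tnfaip3 over Cyld was 1.01 and 0.845 in mdx and 1.15 and 1.14 in wild type. Birc3 over Cyld was 0.328 and 0.175 in mdx and 0.349 and 0.423 in wild type, and here 1 mdx library came close to the wild type values. With Rbck1 in place of Cyld, Birc3 was at 0.581 and 0.469 in mdx and 0.955 and 0.823 in wild type, with no overlap. Traf2 over Rbck1 was 0.358 and 0.488 in mdx and 0.790 and 0.514 in wild type. There 1 mdx library came close to the lower wild type value, so the gap for Traf2 depends on the gene it is divided by. Tnfaip3 over Rbck1 was 1.79 and 2.27 in mdx and 3.16 and 2.22 in wild type, which overlap. These pairs were chosen after the values were seen, so they are given with no test.

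Around these genes, 1 of 38 tested promoter regions of other TNF receptor signalling genes passed, the one of Ube2n. It encodes the conjugating enzyme UBC13, which builds the chains that recruit the TAK1 kinase. The Ube2n region, chr10:95514638-95515709, held 666 and 658 scaled reads in mdx, against 1220 and 972 in wild type, so the mdx libraries were close together and well below wild type. The means were 662.0 ± 5.7 in mdx and 1096.0 ± 175.4 in wild type (SD, n = 2 each). It fell with a log2 fold change of -0.72, SE 0.15 (limma, adjusted p = 0.0266). The call ended with no filter on low values (adjusted p = 0.0580, limma) and after cyclic loess (-0.42, adjusted p = 0.0585, limma). Adjusted p ran from 0.00337 to 0.0585 over the 9 alternatives that kept all libraries and group as the only term (limma). Leaving out each library in turn gave -0.88 to -0.55, and none of those fits called any region of the table. The 44 genes were listed with earlier results of these data known, and 36 of them had a tested promoter. Of their 38 regions, 0 rose and 1 fell, and 10 had an unadjusted p under 0.05, against 21.0% of named promoters. Among named promoters, 0.444% rose and 1.79% fell. The groups were apart with mdx lower in 24 of the 38 and with mdx higher in 2, against 45.6% and 8.72% of named promoters.

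By role, the regions of the other ubiquitin enzymes and conjugating enzymes had a median log2 fold change of -0.49 over 11 regions, and in 10 of the 11 the mdx libraries were both below wild type, beside 45.6% of named promoters. After Ube2n, the lowest p there belonged to Ube2k, at 188 and 175 scaled reads in mdx, against 290 and 287 in wild type (-0.67, limma, adjusted p = 0.0774). Otulin, the deubiquitinase for linear chains, held 209 and 251 in mdx and 327 and 266 in wild type (-0.36, adjusted p = 0.320, limma). Xiap, a relative of the cIAP ligases, held 152 and 173 in mdx and 263 and 228 in wild type (-0.59, adjusted p = 0.128, limma). None of these 3 passed, and Ube2k, Otulin and Xiap were picked after their values were seen.

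The genes listed as ubiquitin-binding adaptors had a median of -0.36 over 7 regions, beside -0.26 over named promoters. In 7 of 7 the groups were apart with mdx lower, beside 45.6% of named promoters, and 0 passed, beside 2.23%. Azi2, which binds the kinase TBK1, was nearest, with 245 and 260 scaled reads in mdx, against 402 and 362 in wild type (-0.59, SE 0.19, limma, adjusted p = 0.0855). Adaptors and death domain proteins lay at -0.25 over 7 regions with 0 passing, and Traf5, a relative of Traf2, held 196 and 184 in mdx and 299 and 297 in wild type (-0.65, SE 0.20, limma, adjusted p = 0.0804). In both genes the groups are apart and the replicates close. The 8 kinase regions, 2 of them of Mapkapk2, had a median of -0.16, with values from -0.65 to 0.24. Of the regions of Mapkapk2, a kinase that phosphorylates RIPK1, 1 was at the low end with 141 and 170 in mdx and 279 and 214 in wild type cells (adjusted p = 0.117, limma). The other Mapkapk2 region held 39 and 38 in mdx and 51 and 37 in wild type cells, with overlap (-0.17, adjusted p = 0.825, limma). The IκB kinase gene Chuk was at the high end with 104 and 119 in mdx and 98 and 90 in wild type cells (adjusted p = 0.618, limma). Neither passed.

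The receptor genes had 2 tested regions. Tnfrsf1a, encoding TNFR1, held 10 and 26 scaled reads in mdx, against 27 and 22 in wild type, with overlap (-0.56, SE 0.55, limma, adjusted p = 0.579), and its value was 0.09 without mdx replicate 1. Tnfrsf1b, encoding TNFR2, was at -0.02 (limma, adjusted p = 0.981). The NF-κB group had a median of -0.33 over 3 regions. Nfkbia, which encodes the inhibitor IκBα, held 507 and 469 in mdx and 644 and 581 in wild type (-0.33, SE 0.16, limma, adjusted p = 0.248).

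**Figure D4:**
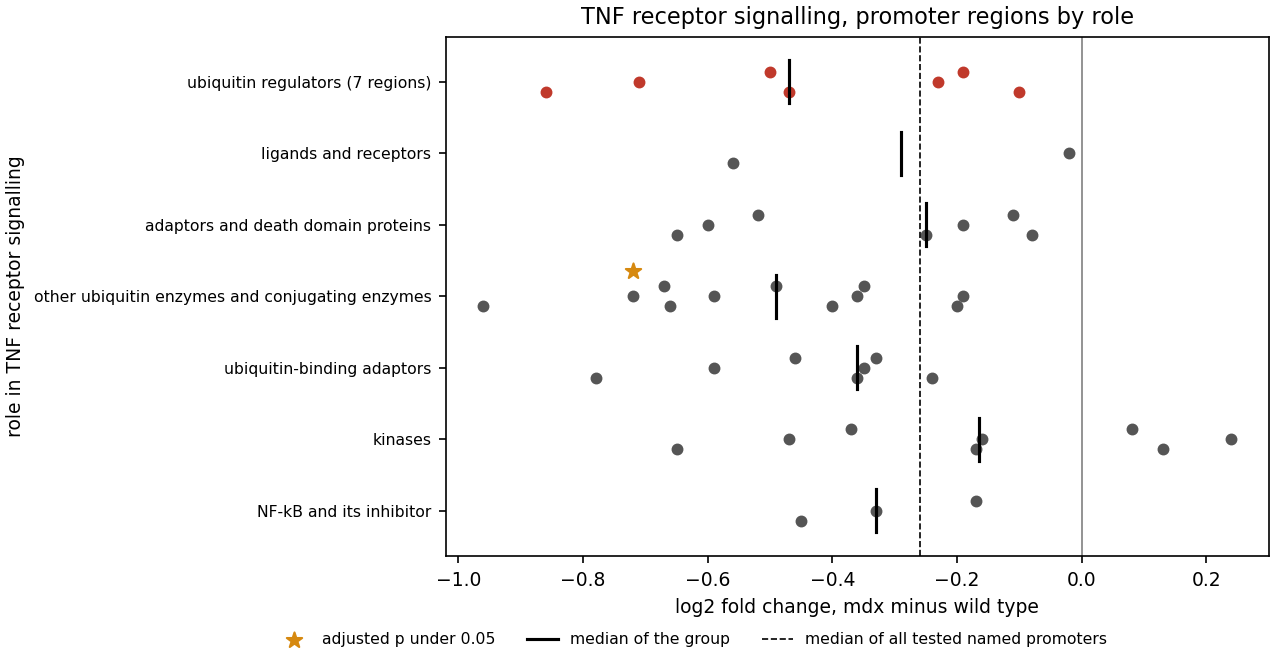
Log2 fold change, mdx minus wild type, of each tested promoter region (points) by role in TNF receptor signalling, with a line at the median of each group. The dashed line is the median of all named promoters, -0.26, and the star marks Ube2n, the 1 region that passed. The ubiquitin regulators (-0.47) and the other ubiquitin enzymes (-0.49) have the lowest medians, and the kinases (-0.16) the highest.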

How the data were processed

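Each ATAC-seq library came from 10000 to 20000 sorted cells incubated with Tn5 for 30 min at 37 °C, per the labels. The submitters' processing notes name MACS2 2.1.0, STAR 2.5.3a, DESeq2, DESeq, Picard 2.9.0 and Trimmomatic 0.33, and the build mm10. What each did, how duplicates and the Tn5 offset were handled, and whether peaks were called on pooled libraries is not given in the sources used here. Whether region starts count from 0 or 1 is not stated.

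The deposited values are handled as a score. They are whole numbers that skip regular steps, as reads multiplied by 1 factor per library (1.38203 and 1.16194 in mdx, 1.22158 in wild type replicate 1) and rounded by the authors would. The factor of wild type replicate 2, 0.49205, was read from how often each whole number occurs. It had the lowest Poisson deviance (542.7) among factors from 0.2 to 0.99, and the next was 0.248 (586.0), about a doubling of the reads, so the reads of that library rest on this fit and are approximate. Dividing by the factors gave the recovered reads in listed regions, which are not library totals. Distances to gene starts are as the authors deposited them.

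Limma 3.58.1 in R 4.3.3 was fitted to log2(value + 1) with an intensity trend and group as the only term. The fit covered the 33161 regions that reached a value of 10 in 2 or more libraries, with Benjamini-Hochberg adjustment over them, and was tested on simulated data. The log2(value + 1) scale understates the change of low regions. Promoter regions are those within 1 kb of the start of the gene they are linked to. Named genes are all members, each called gene of the other pathway genes and the gene with the smallest p in each role. Ube2k, Otulin, Xiap, Chuk and Tnfrsf1b are named outside that rule, after their values were seen. Members, lists and tests were chosen with earlier results of these data known. Alternatives covered scaling, filter, pseudocount, threshold, voom, replicate block, promoter window and each library. Poisson intervals used SciPy 1.17.1.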

Additional observations from a re-analysis of the deposited data

How the results depend on the processing

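Of the 7 member regions, 0 passed as reported and in the fits without each library in turn, with no filter, with a pseudocount of 0.1 and with promoter medians set equal. The count was 4 with distal medians set equal, and 1, Birc3, with cyclic loess, scaling by totals, a mean of at least 50, a pseudocount of 5, voom or an adjusted p under 0.1. All calls were lower in mdx. Of the 38 other pathway regions 1 passed as reported, beside 2.23% of named promoters, and 14 with distal medians set equal, beside 23.2%. The pathway count was 4 with a mean of at least 50, 4 at an adjusted p under 0.1, and 0 with cyclic loess or no filter. Over all tested regions the 1387 calls became 2245 with cyclic loess, 1820 with scaling by totals, 1936 of 17549 with a mean of at least 50, 1959 with a pseudocount of 5, 1996 with voom, 4705 with distal medians set equal, 458 with no filter and 3372 at an adjusted p under 0.1. Fits without 1 library, in which the lone library is assumed to vary like the other group, gave 0 calls (lowest and highest 0) for all 3 counts. A promoter window of 5 kb left the pathway count at 1.

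Same-numbered libraries did not deviate together (correlation of their deviations -0.109 over 33161 regions), so the numbers are not taken as pairs. A replicate block gave 2761 calls over all regions, 1 in the members (Birc3, adjusted p = 0.0458, limma) and 1 in the pathway genes. The crossed replicate block, which pairs unlike numbers and was added after the data were seen, gave 5461, 4 and 9.

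Signs turned for Cyld with cyclic loess (0.03), with promoter medians set equal (0.01) and without mdx replicate 1 (0.06, the leave-one-out values running from -0.43), for Rbck1 with promoter medians set equal (0.10), for Spata2 without wild type replicate 1 (0.31, from -0.77) and for Tnfrsf1a without mdx replicate 1 (0.09, from -1.21). The other 4 members kept their sign in all 15 alternatives. The cause of the changes with scaling was not tested. With 3208475 and 3607633 recovered reads in mdx, against 3693096 and 8165050 in wild type, counting error is lowest in wild type replicate 2. Among the members it is largest, relative to the value, at the 22 to 53 reads of Spata2.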

Other observations

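Outside their gene starts, the members had few other listed regions within their RefSeq spans (GRCm38.p6). Inside Tnfaip3, 5898 bp from the start, chr10:19009372-19009652 held 93 and 69 scaled reads for mdx against 89 and 62 for wild type, so the groups overlap there, unlike at the promoter of the same gene. Inside Traf2, 12608 bp from the start, chr2:25534165-25534500 held 46 and 44 in mdx and 20 and 41 in wild type, with both mdx libraries above wild type while the Traf2 promoter had them below. A second region inside Traf2, chr2:25540788-25540938, linked to a processed pseudogene, held 23 and 12 in mdx and 6 and 13 in wild type. A region inside Birc3, chr9:7855514-7855626, held 8 and 7 in mdx and 22 and 9 in wild type, too low to be tested. A second region inside Tnip1, chr11:54927532-54927971, held 41 and 45 in mdx and 57 and 40 in wild type. Cyld, Birc2, Rbck1 and Spata2 had 0 such regions. These regions were found by position after values were seen and have no test. The difference between the promoter and the inner region of Tnfaip3 or Traf2 was not tested either.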
